A study of Homo sapiens with 18 samples.

Results

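The mitochondrial ribosomal proteins described here are the protein-coding genes whose symbol starts with MRPL or MRPS followed by a digit. The rule used names only and no measured value, and found 77 genes among the 41285 of the deposited count table, 48 named for the large subunit (MRPL) and 29 for the small subunit (MRPS). RNA was sequenced from 3 isogenic lines of K562, an established chronic myeloid leukaemia cell line, in 9 groups of 2 libraries. All groups were grown in the same serum-containing medium. Parental cells were untreated or given interferon alpha (IFN) at 1000 U/mL for 24 hours. VPR-D9 cells carry a doxycycline-inducible dCas9-VPR, an activator directed at SAMD9, and were untreated or in one of the doxycycline groups coded D2000 and D6. KRAB-D9 cells carry an inducible dCas9-KRAB, a repressor directed at the same gene, and were untreated or given IFN, doxycycline, or both, with doxycycline begun 24 hours before IFN. The protocol gives doxycycline at 2 µg/mL. The meaning of D2000 and D6, the length of doxycycline treatment without IFN, and whether a line is 1 clone were not given in the sources used here. A parental group with doxycycline was not analysed here, so a response to doxycycline or to dCas9 expression cannot be told apart from one to SAMD9.

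Mitochondria carry their own ribosome, which translates only the few mRNAs of the mitochondrial genome, all of them encoding subunits of the respiratory chain and ATP synthase. Its protein subunits are encoded in the nucleus, made in the cytosol and imported. The small subunit decodes the mRNA, and the large subunit joins the amino acids and feeds the chain into the inner membrane. Part of the proteins have bacterial relatives, and part were added during the evolution of mitochondria. The symbols of 3 genes mislead: MRPS18A and MRPS30 are named for the small subunit and sit in the large one, and MRPS36 is now assigned to the 2-oxoglutarate dehydrogenase complex.

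Libraries held 32.7 M to 63 M counts, the shallowest being replicate 1 of KRAB-D9 with IFN, whose group also had the largest spread between its libraries (8.22 times counting noise, against 4.1 to 5.59 elsewhere). SAMD9, the targeted gene, stood at 9.31 and 9.05 CPM (counts per 1000000, on library sizes scaled by TMM) in untreated parental cells and at 168 and 154 with IFN. It stood at 59.9 and 61.4 CPM in untreated VPR-D9 cells, at 974 and 948 in D2000 and at 936 and 960 in D6. In KRAB-D9 cells it stood at 0.75 and 0.364 CPM untreated, 55 and 53.5 with IFN, 0 and 0.117 with doxycycline, and 0.849 and 0.745 with both. It moved in the labelled direction in each line, and the untreated lines already differed from parental cells. SAMD9 was at about the same level in D2000 and D6. The erythroid markers of K562, GATA1 (149 to 241 CPM) and TFRC (261 to 1690 CPM) among them, were present in every library. Levels of cell type markers, here and below, are counts per 1000000 of library totals with no TMM scaling.

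All 77 genes passed the filter on low counts. Their levels differed widely per length (CPM per kilobase of the gene length in the table). In the large subunit MRPL41 was highest at 154, followed by MRPL14 at 93.7 and MRPL18 at 88.3, and MRPL23 (2.63), MRPL46 (1.89) and MRPL38 (1.29) were lowest. In the small subunit MRPS34 (81.6), MRPS21 (80.3) and MRPS16 (67.3) were highest, and MRPS6 (7.09), MRPS17 (4.7) and MRPS24 (0.204) were lowest. MRPS24 had only 11 to 52 counts a library and MRPL38 98 to 345. Both share exons on the same strand with another gene of the table (23.2 and 37.5% of their exonic bases in GENCODE release 29), as do 12 of the 77 in all, MRPL12 (68.2%) most, so their levels are uncertain. Reads of the 42 pseudogene rows amounted to at most 20.4% of the parent gene, for MRPS17.

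Summed over the genes of a subunit, levels were lowest in D2000 for both subunits. The small subunit sum was 865 and 856 CPM per kilobase in the untreated VPR-D9 libraries, 561 and 541 in D2000, and 813 and 840 in D6. The large subunit sum was 1660 and 1630 untreated, 1140 and 1100 in D2000, and 1580 and 1600 in D6. In KRAB-D9 cells doxycycline took the small subunit sum from 952 and 949 to 857 and 837 and the large from 1760 and 1750 to 1570 in both libraries. The sum over the large subunit was highest in parental cells, at 1860 and 1910. As a share of all counts, with no scaling between libraries, the 77 genes took 0.44 and 0.433% in D2000, 0.562 and 0.559% in untreated VPR-D9 cells, 0.555% in both D6 libraries and 0.601 and 0.61% in untreated parental cells. The ratio of the small to the large subunit sum was 0.491 and 0.49 in D2000, the lowest of the 18 libraries. It was 0.533 and 0.551 in KRAB-D9 with doxycycline and IFN, the latter the highest of the 18. The mean of that group was 0.542, as in untreated KRAB-D9 cells. These sums are descriptions and carry no test. In bulk RNA, fewer cells of a kind and less RNA per cell cannot be told apart.

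**Figure D1:**
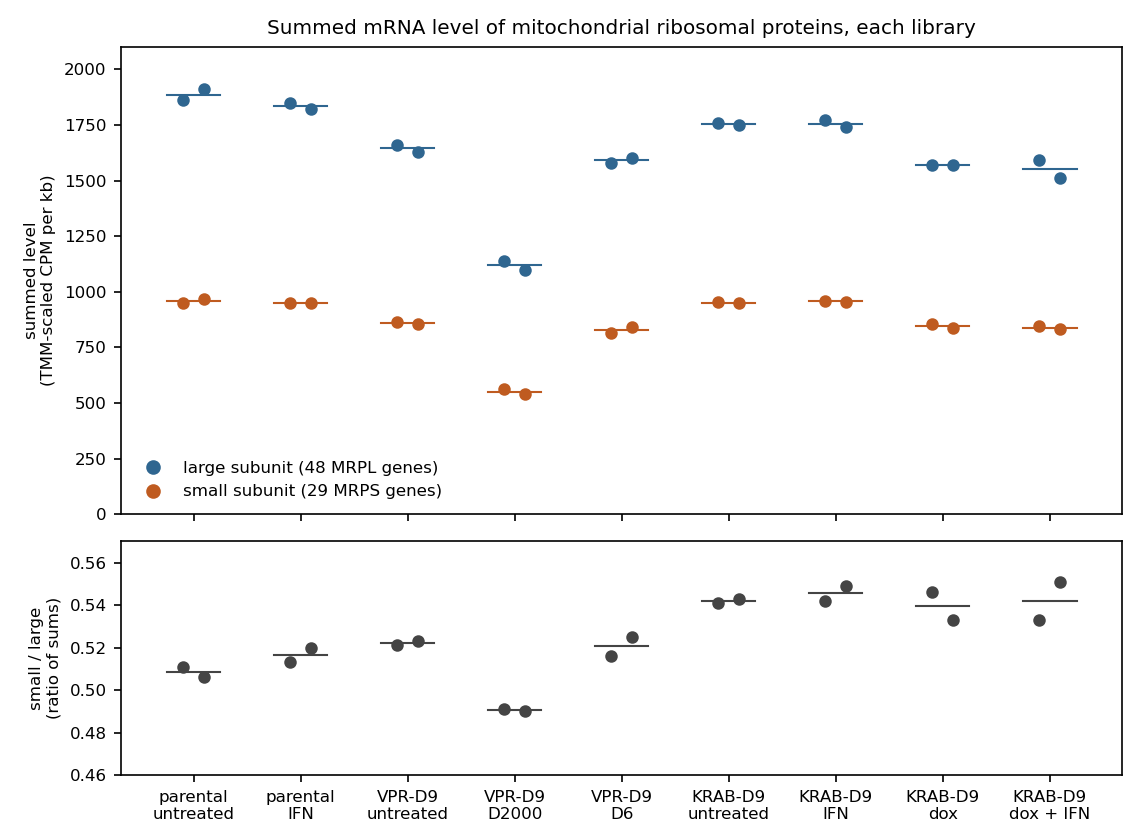
Summed level of the 48 MRPL and 29 MRPS genes in TMM-scaled CPM per kilobase (top) and the ratio of the small to the large subunit sum (bottom), for each library of the 9 groups; points are libraries and lines group means, and the ratio axis does not start at 0. Both D2000 libraries lie below the other 16 in both sums, with a ratio of 0.491 and 0.49.

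D2000 lowered nearly the whole set. Against untreated VPR-D9 cells, 72 of the 77 genes were lower and 1 was higher at an adjusted p under 0.05 (edgeR quasi-likelihood test, Benjamini-Hochberg adjustment over 22143 genes), where 46.1% of all genes tested were called in either direction and 24.2% were lower. Among the 9204 genes with a mean of at least 10 CPM, closer to the level of these genes, 50.6% were lower. The median log2 fold change was -0.67 over the small subunit and -0.59 over the large, beside 0.06 over all genes tested and -0.17 over those of at least 10 CPM. In the small subunit 27 of 29 were lower and in the large 45 of 48. Both D2000 libraries were below both untreated ones for 73 of the 77 genes, and the share over all genes was not computed. The deepest fall was 2.26-fold. Scaled by library totals in place of TMM, 60 were lower and 3 (MRPS14, MRPL43 and MRPL47) higher, and over all genes 7195 were then higher and 3286 lower in place of 4853 and 5348, with a median of 0.29. Marker sums are on library totals, unlike the TMM-scaled levels of the members. TMM scaling multiplied library sizes by 1.167 and 1.192 in D2000 and by 1.005 untreated. On that scale the D2000 sums would be lower. In the same libraries the summed level of the 9 erythroid markers was 788 to 790 CPM in D2000, beside 1400 in untreated cells and 1300 in D6. That of the 4 lymphoid markers was 18.6 to 19.6 beside 9.75 to 11.2 and 10.5 to 10.9, and that of the 5 myeloid markers 59.8 to 59.9 beside 39.6 to 39.7 and 42.1 to 43.1. Of the myeloid markers only LYZ reached 1 CPM in any library, and MPO and ELANE had a median of 0. The part of these shifts in the result was not tested.

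In the small subunit the largest fall was that of MRPS12, the protein of the decoding centre, from 72.7 and 69.2 to 34.5 and 31.8 CPM (log2 fold change -1.1 ± 0.07 SE, adjusted p = 5.03e-17). MRPS2, a protein of bacterial descent, went from 62 and 63.9 to 30.6 and 31.7 CPM (-1.01 ± 0.06). MRPS34, a protein particular to mitochondria, went from 92.3 and 91.4 to 46.8 and 47.9 CPM (-0.96 ± 0.05). In all 3 the D2000 libraries lay near one level and far from the untreated pair. MRPS18C and MRPS23 both fell by 0.92 on the log2 scale, and MRPS17, at 7.61 and 9.01 CPM untreated, fell by 0.87 ± 0.13. MRPS35 went from 116 and 114 to 75.2 and 72.5 CPM (-0.64 ± 0.05), near the median of its subunit. The weakest fall that passed the test was that of MRPS18A, from 36.6 and 37.3 to 34.1 and 31.4 CPM (-0.17 ± 0.07, adjusted p = 0.0482). That call was lost by DESeq2, without the filter and without replicate 2 of D2000 or either untreated library, and scaled by library totals the value was 0.06. MRPS14 and the barely detected MRPS24 did not pass it. MRPS14 stood at 33.9 and 31.6 CPM untreated and at 36.8 and 34.5 in D2000 (0.12 ± 0.07, adjusted p = 0.156).

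In the large subunit MRPL3, a core protein near the peptidyl transferase centre, fell most, from 129 in both untreated libraries to 57.5 and 56.5 CPM (-1.18 ± 0.05, adjusted p = 5.23e-23). MRPL24, a protein at the exit of the polypeptide tunnel, went from 91.7 and 88.5 to 46.4 and 43.5 CPM (-1 ± 0.06). MRPL21, MRPL12, MRPL4 and MRPL20 fell by 0.98, 0.95, 0.94 and 0.93, the second of them being the stalk protein that recruits translation factors. MRPL1, the protein of the L1 stalk, went from 46.3 and 48.1 to 30.1 and 27.5 CPM (-0.71 ± 0.06). The gene called higher was MRPL47, also at the tunnel exit, at 92.3 and 91.7 CPM untreated and 100 and 103 in D2000 (0.14 ± 0.05, adjusted p = 0.027). It was not called by DESeq2 or with any 1 of the 4 libraries left out (0.13 to 0.16). MRPL43 (0.02 ± 0.09) and the low MRPL38 (-0.33 ± 0.18) did not pass the test.

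Medians differed between classes of proteins, a description with no test. In the large subunit the 30 genes of bacterial descent had a median of -0.71 and 29 of them were lower. The 18 particular to mitochondria had a median of -0.41 and 16 were lower. In the small subunit the corresponding medians were -0.68 (16 genes, 14 lower) and -0.66 (10 genes, 10 lower). The 3 stalk genes MRPL10, MRPL11 and MRPL12 were all lower (MRPL10 at -0.1 and not called when scaled by library totals), and of the 8 genes at the tunnel exit 7 were lower and MRPL47 higher. Counting MRPS18A and MRPS30 in the large subunit and leaving out MRPS36 left the medians at -0.67 and -0.59. The difference between the subunits, -0.08, moved to -0.04 without the 38 genes that overlap another gene, and ranged from -0.12 to -0.04 when 1 library was left out.

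**Figure D2:**
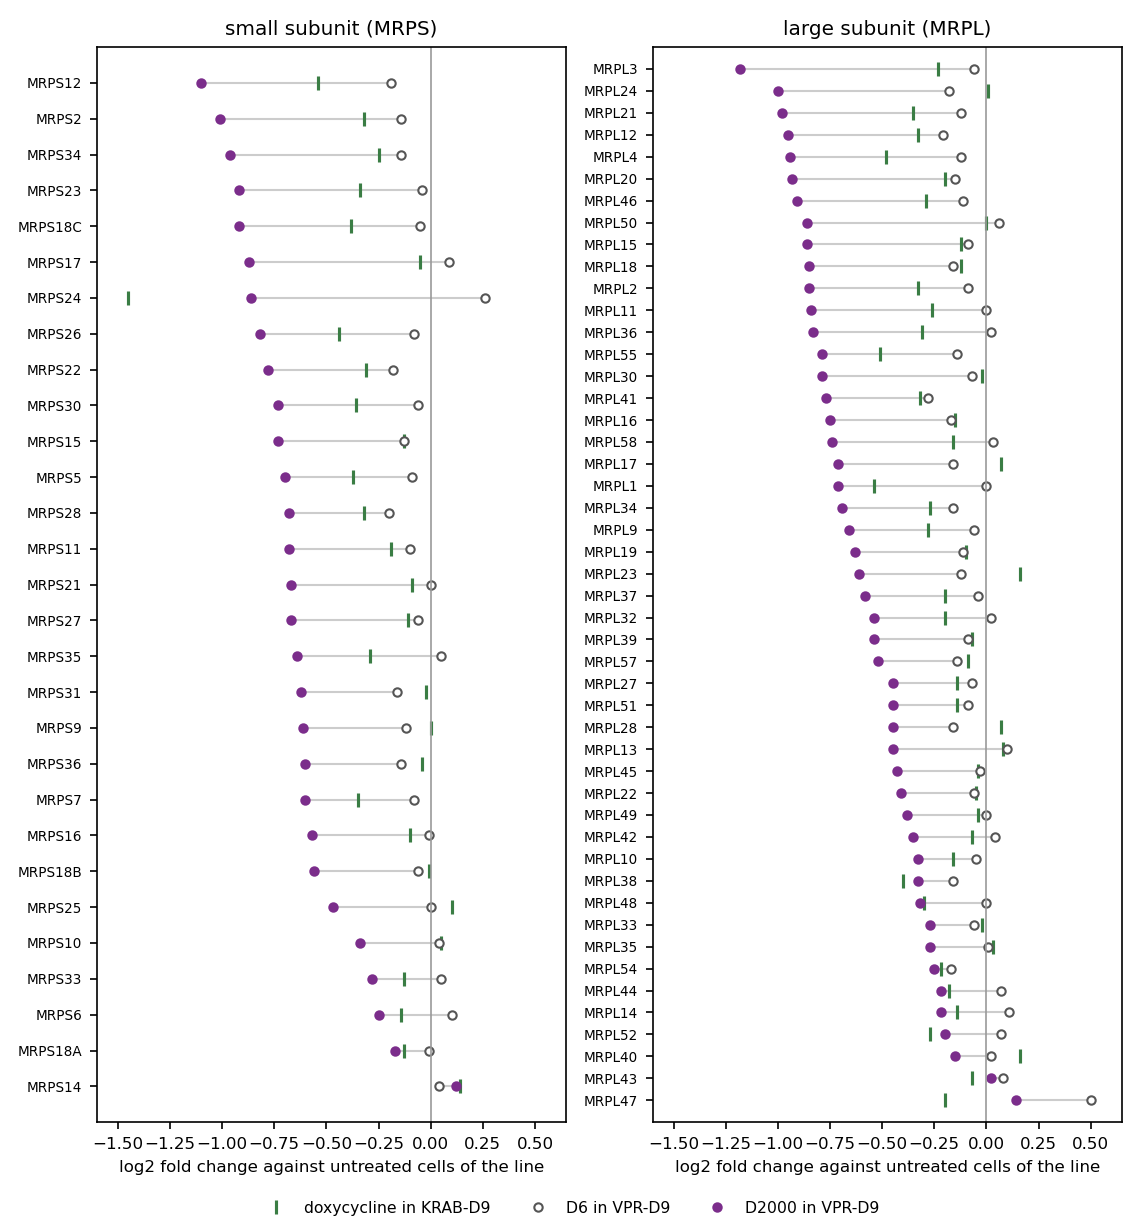
Log2 fold change of each MRPS gene (left) and MRPL gene (right) against untreated cells of the same line in D2000 (filled circles), D6 (open circles) and KRAB-D9 with doxycycline (ticks), ordered by the D2000 value. D2000 values reach -1.1 for MRPS12 and -1.18 for MRPL3, while D6 values lie near 0 for most genes; the far tick of MRPS24 rests on 11 to 52 counts a library.

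D6 left most of these genes near their untreated level. Against untreated VPR-D9 cells 7 were lower and 1 was higher, with 6.6% of all genes tested called, 3.41% lower, and 7.7% lower among those of at least 10 CPM. That is near the 9.09% of the members that were lower. The medians were -0.06 for the small and -0.07 for the large subunit. Scaled by library totals, 2 were lower and 1 higher. MRPS22, a protein of the small subunit particular to mitochondria, went from 99.7 and 104 to 89 and 90.3 CPM (-0.18 ± 0.05, adjusted p = 0.00809). MRPL41 went from 102 and 94.4 to 80.9 and 80.8 CPM (-0.28 ± 0.06, adjusted p = 0.000989). MRPL24, MRPL16, MRPL18 and MRPL28 fell by 0.18, 0.17, 0.16 and 0.16, close to the threshold. MRPL47 rose from 92.3 and 91.7 to 124 and 136 CPM (0.5 ± 0.05, adjusted p = 1.28e-08), the largest change of the 77 genes in D6. With 1 library left out, 2 (without replicate 1 of either group) to 4 (without replicate 2 of either) genes were called. MRPL24 and MRPL16 lost the call whichever library was left out, and MRPL28, MRPL18, MRPS22 and MRPL41 lost it without some library. With 1 library left out MRPS22 ranged from -0.22 to -0.16, MRPL41 from -0.33 to -0.23 and MRPL47 from 0.43 to 0.56.

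Compared directly, D6 was above D2000 for 71 genes and below it for none, with 40.4% of all genes called in either direction, 21.7% higher, and 46.0% higher among those of at least 10 CPM. Scaled by library totals 61 were higher and 1 lower, and over all genes 2945 were then higher and 6481 lower, with a median of -0.25, in place of 4797 and 4152. The medians were 0.6 for the small and 0.52 for the large subunit, beside -0.05 over all genes tested and 0.13 over those of at least 10 CPM. MRPL3 stood at 121 and 127 CPM in D6 against 57.5 and 56.5 in D2000 (1.12 ± 0.05), MRPS12 at 62.1 and 62.3 against 34.5 and 31.8 (0.91 ± 0.07), and MRPL50, at 52.1 and 53.3 against 29.1 and 26.6, differed by 0.92 ± 0.06. MRPS35 (0.69 ± 0.05) and MRPL1 (0.71 ± 0.07) were also higher. The comparison uses the same D2000 libraries as the one above. SAMD9 levels were nearly equal in these groups, as given above.

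Doxycycline also lowered a large part of the set in KRAB-D9 cells, by less. Without IFN, 35 genes were lower and 1 was higher, with 24.7% of all genes tested called, 12.7% lower, and 26.0% lower among those of at least 10 CPM. With IFN present in both arms, 39 were lower and none higher, with 22.3% of all genes called, 11.9% lower, and 24.7% lower among those of at least 10 CPM. Median changes were -0.14 (small) and -0.15 (large) without IFN and -0.22 and -0.17 with it, beside 0.02 and 0.01 over all genes tested. Scaled by library totals, 29 members were lower and 2 higher without IFN, and 33 lower and 1 higher with it. Over all genes 3162 were then higher and 2368 lower without IFN, and 3109 higher and 1955 lower with it. The comparisons without and with IFN share no library. They had 28 lower genes in common, 28 of the 35 and 28 of the 39, and over the 75 genes of at least 5 CPM their changes correlated with r = 0.74 (Spearman 0.72), a description in which points share libraries within each axis. The summed erythroid markers were at 2470 to 2480 CPM untreated and 3110 to 3170 with doxycycline, and at 2770 to 2830 with IFN and 3480 to 3490 with both. The lymphoid sum was 6.59 to 7.08 untreated and 2.95 to 3.28 with doxycycline, and the myeloid sum 25.2 to 26.4 and 14.2 to 14.9. Their part in the result was not tested.

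Among the genes called, MRPL1 and MRPS12 changed most without IFN. MRPL1 went from 66.2 and 69.9 to 48.2 and 45.1 CPM (-0.54 ± 0.06, adjusted p = 1.16e-08), and with IFN from 74.3 and 67.2 to 52.2 and 47.2 (-0.51 ± 0.06). MRPS12 went from 82.4 and 82.3 to 58.8 and 54.9 CPM (-0.54 ± 0.07) without IFN. With IFN it went from 68.2 and 85 to 62.4 and 60.2 (-0.33 ± 0.07), and without replicate 2 of the IFN group that change was -0.15 with an adjusted p of 0.105. MRPL55, a large subunit protein of bacterial descent, went from 42.9 and 45.2 to 30 and 31.8 CPM (-0.51 ± 0.07) and with IFN from 42.2 and 45.2 to 31.4 and 29.3 (-0.53 ± 0.07). In each of these the doxycycline libraries lay below their controls.

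MRPL4 (-0.48), MRPS26 (-0.44), MRPS18C (-0.38), MRPS5 (-0.37), MRPS30 (-0.36), MRPS7 (-0.35) and MRPL21 (-0.35) followed without IFN. MRPL2 (-0.33 ± 0.1) and MRPL12 (-0.33 ± 0.11) passed the test without IFN, but not without replicate 1 of the doxycycline group or without untreated replicate 2 (-0.3 and -0.19 for MRPL2, -0.26 and -0.24 for MRPL12). With IFN, MRPS23 (-0.41), MRPS35 (-0.4), MRPL36 (-0.42) and MRPL46 (-0.48) were among the deepest. MRPL46 was not called without replicate 2 of the doxycycline and IFN group (-0.29, adjusted p = 0.208). MRPS35 stood at 136 and 141 CPM untreated and at 115 and 112 with doxycycline (-0.29 ± 0.05). The gene that rose without IFN was MRPL40, from 102 and 100 to 114 and 112 CPM (0.16 ± 0.05, adjusted p = 0.0158). That call was lost without replicate 1 of the doxycycline group or without either untreated library (0.15 to 0.17). With IFN it was at -0.01 ± 0.05.

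The fall in D2000 was deeper than that with doxycycline in KRAB-D9 cells for most genes, by a test of the difference between the changes. It was called for 62 genes towards a deeper fall in D2000 and for 1 the other way, with 31.3% of all genes tested called. The largest differences were those of MRPL24 (-1.01 ± 0.08, adjusted p = 3.14e-13), at -1 in D2000 and 0.01 in KRAB-D9 cells, and MRPL3 (-0.95 ± 0.06), at -1.18 and -0.23. MRPL50 was at -0.86 and 0, and MRPL1 was at -0.71 and -0.54, with the difference not called. Scaled by library totals the counts were 43 and 2, and over all genes 4208 differences were then positive and 2450 negative, with a median of 0.16. With DESeq2 size factors they were 61 and 1, and over all genes 2715 were positive and 4187 negative, with a median of -0.02. Across the 75 genes the changes in D2000 and in KRAB-D9 with doxycycline alone, which share no library, correlated with r = 0.46 (Spearman 0.47), and genes that fell in KRAB-D9 cells lay with 1 exception among the 72 lower in D2000 (45 of the 46 lower with or without IFN). As 93.5% of the genes were lower in D2000, that overlap says little of which genes they are.

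**Figure D3:**
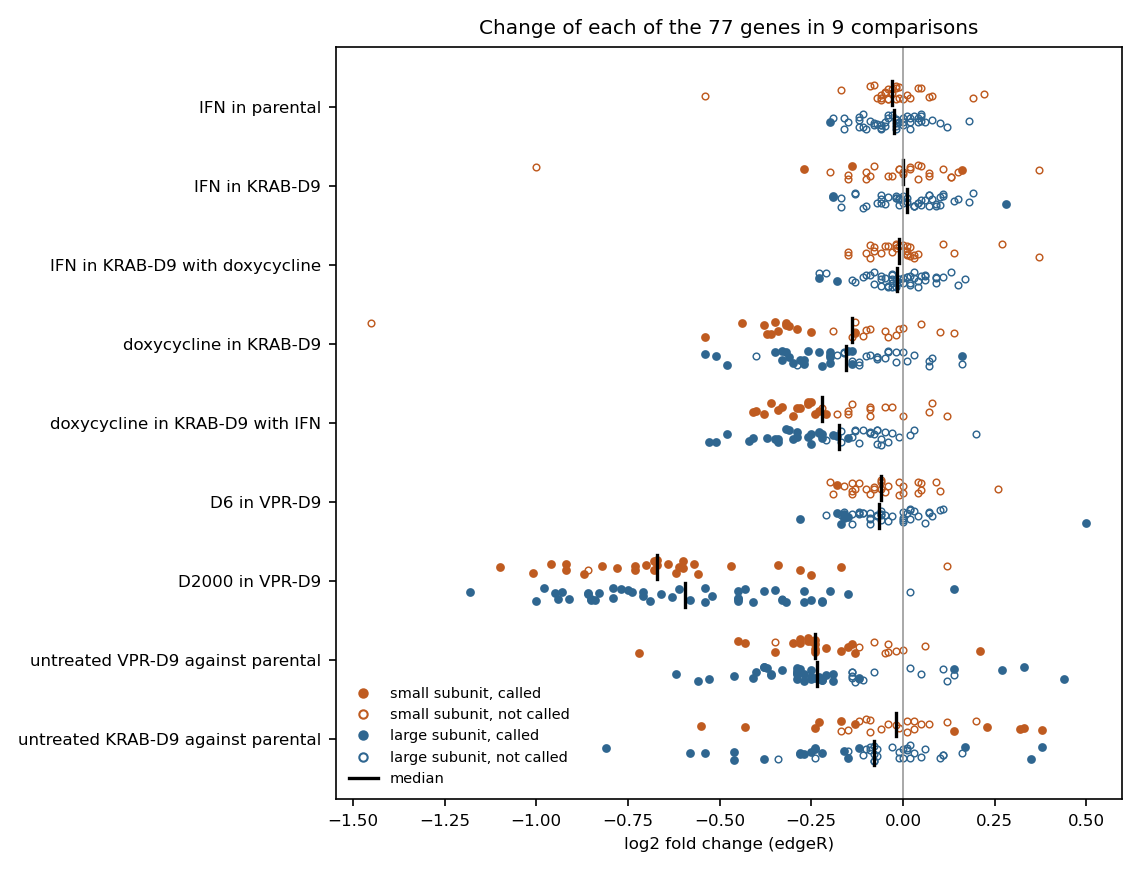
Log2 fold change of the 77 genes in 9 comparisons, by subunit (filled: adjusted p under 0.05; black bars: medians). The D2000 points centre on -0.67 and -0.59 and the KRAB-D9 doxycycline points on -0.14 to -0.22, while the IFN rows centre on 0; the open points at -0.54, -1 and -1.45 are MRPS24.

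IFN changed few of these genes. In parental cells 1 gene was lower, MRPL30, a large subunit protein, from 105 and 106 to 92.4 and 91.3 CPM (-0.2 ± 0.05, adjusted p = 0.00447), with 4.34% of all genes tested called, 1.31% lower; fitted with the compared groups alone, 3 genes were called, and none was without replicate 2 of either group. In KRAB-D9 cells 4 were lower and 2 higher (6.4% of all genes called, 2.42% lower): MRPS6 (-0.27), MRPS16 (-0.14), MRPL41 (-0.19) and MRPL51 (-0.19) lower, and MRPS10 (0.16) and MRPL17 (0.28) higher. These calls varied with the fit and the libraries: fitted with the compared groups alone there were none, and leaving out 1 library gave 0 (without untreated replicate 1) to 16 (without IFN replicate 2), with 3 without the shallow IFN replicate 1. With doxycycline present, MRPL51 (-0.23 ± 0.05) and MRPL30 (-0.18 ± 0.05) were lower (4.89% of all genes called, 1.77% lower), and leaving out replicate 2 of either group left none and replicate 1 of the doxycycline group 1. MRPL30 was at 98.9 and 100 CPM in untreated KRAB-D9 cells and at 95.8 and 96.1 with IFN alone.

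MRPS35 (-0.06 ± 0.05) and MRPL1 (-0.16 ± 0.06) did not pass the test in parental cells given IFN. Medians over each subunit lay between -0.03 and 0.01 in the 3 IFN comparisons. A difference in the IFN change between KRAB-D9 and parental cells was called for none of the 77 genes by edgeR or DESeq2. Nor was one between the doxycycline change with and without IFN. Over all genes 0.303 and 0.158% were called. At an unadjusted p under 0.05 (edgeR), 7 and 10 of the 77 passed, beside 2152 and 1987 of the 22143 genes tested. Without replicate 2 of the IFN group, 7 and 9 genes were called. IFN lowered part of the 13 mRNAs that this ribosome translates, 5 in parental cells, 7 in KRAB-D9 cells and 7 with doxycycline. Over all genes 1.31, 2.42 and 1.77% were lower. The medians of these mRNAs were -0.35, -0.39 and -0.34. They took 3.23% of counts in both untreated parental libraries and 2.65 and 2.51% with IFN. In KRAB-D9 cells they took 3.09 and 3.15% untreated and 2.86 and 2.36% with IFN, so the IFN libraries differed. With doxycycline they took 3.69 and 3.7%, and 2.84 and 2.92% with both.

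**Figure D4:**
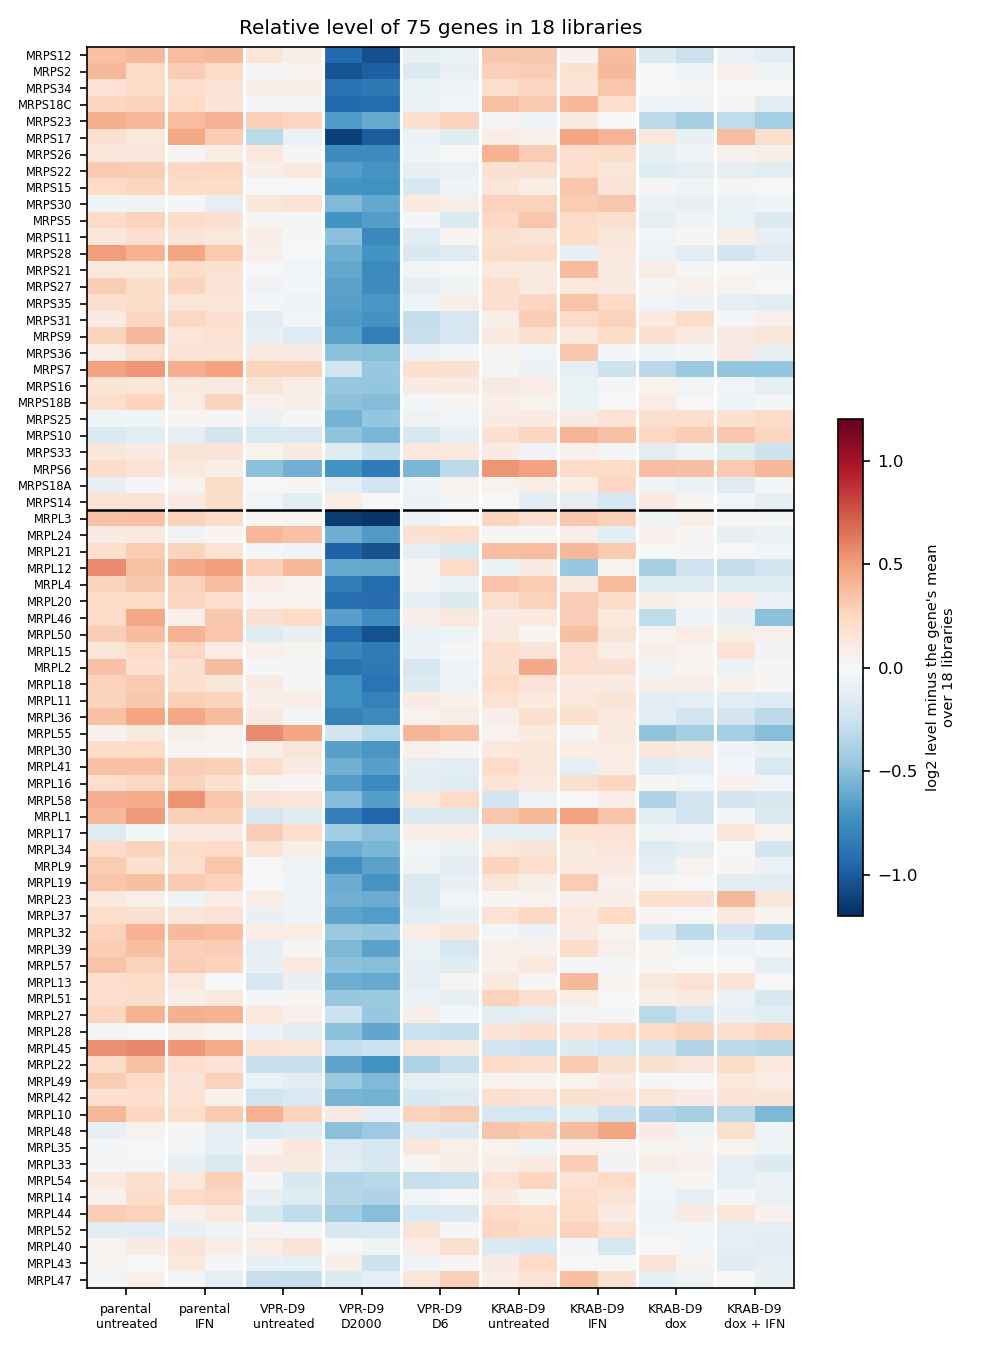
Log2 level of 75 genes (mean of at least 5 CPM) minus the gene's mean over the 18 libraries, small subunit above the line and large below, each ordered by the D2000 change. D2000 was the group with the lowest mean for 67 of all 77 genes, and the share over all genes is not given here. The highest group of a gene was at most 2.85 and at least 1.21 times its lowest.

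The untreated lines differed from each other too. Untreated VPR-D9 cells were lower than parental cells for 50 genes and higher for 5, with 36.8% of all genes tested called, 18.2% lower, 30.7% lower among those of at least 10 CPM, and a median of -0.24 in each subunit beside 0 over all genes. The summed erythroid markers were at 1400 CPM in these cells and 1880 to 1890 in parental cells, the lymphoid at 9.75 to 11.2 and 6.55 to 7.25, and the fibroblast or epithelial at 68.8 to 73.3 and 95.7 to 97.3. Their part was not tested. MRPS6 had the largest difference, 20.6 and 19.5 CPM against 33.7 and 32.4 (-0.72 ± 0.08, adjusted p = 5.05e-10). MRPL1 stood at 46.3 and 48.1 against 69.5 and 75.5 (-0.62 ± 0.06), and MRPL22, MRPL44, MRPL50, MRPS9, MRPS28 and MRPL45 were lower by 0.41 to 0.56. MRPL55 was higher, at 62.1 and 57.9 against 43.3 and 45 CPM (0.44 ± 0.06). MRPS35 was lower by 0.24 ± 0.05. MRPS17 (-0.35 ± 0.12) was called here but lost the call without either parental library or without VPR-D9 replicate 1.

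In untreated KRAB-D9 cells 7 of the lower genes lay on chromosome 17. Of the 77 genes 22 were lower than in parental cells and 8 higher (28.5% of all genes tested called, 14.3% lower, and 23.5% lower among those of at least 10 CPM), with medians of -0.02 and -0.08. The summed erythroid markers were at 2470 to 2480 CPM in these cells and 1880 to 1890 in parental cells, and the myeloid markers at 25.2 to 26.4 and 39.1 to 39.6, and their part was not tested. The 7 genes on chromosome 17 with a mean of at least 10 CPM were all among the lower ones, with a median of -0.54. They start at 38297023 or farther along the chromosome. The 8th, MRPL38, has few counts and was at -0.34 ± 0.19. Of the 66 members of at least 10 CPM on other chromosomes 15 were lower and 8 higher, with a median of -0.04. Other genes of chromosome 17 were lower too: the 548 genes of chromosome 17 with at least 10 CPM had a median of -0.41 and 71.0% were lower. The median was 0.02 for the 171 that start before 30 Mb and -0.51 for the 377 that start farther on, of which 92.3% were lower, beside 0.02 over 8656 genes of all other chromosomes, of which 20.5% were lower. In untreated VPR-D9 cells the median of chromosome 17 was 0.03. The split at 30 Mb was chosen after the values were seen. DNA copy number was not measured here.

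MRPL45, which holds the ribosome at the inner membrane, had the largest difference, at 49.4 and 48.3 CPM against 84.7 and 86.2 in parental cells (-0.81 ± 0.06, adjusted p = 6.26e-15; chr17:38297023-38323217, GRCh38). MRPL58, a peptidyl-tRNA hydrolase that frees stalled ribosomes, stood at 30.4 and 34.3 against 48.3 and 48.6 (-0.58 ± 0.08). MRPS7 (-0.55), MRPL10 (-0.54), MRPL12 (-0.46), MRPL27 (-0.46) and MRPS23 (-0.43) were the others on chromosome 17. Elsewhere MRPL32 (-0.38 ± 0.06) was the lowest, on chromosome 7, whose 455 genes of at least 10 CPM had a median of -0.13 with 45.3% lower, and MRPS10 (0.38 ± 0.05), MRPS30 (0.33 ± 0.04) and MRPS6 (0.32 ± 0.08) were higher. MRPS28 (-0.24) was called but not without any 1 of the 4 libraries. MRPS6 thus differed from parental cells in opposite directions in the untreated lines.

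**Figure D5:**
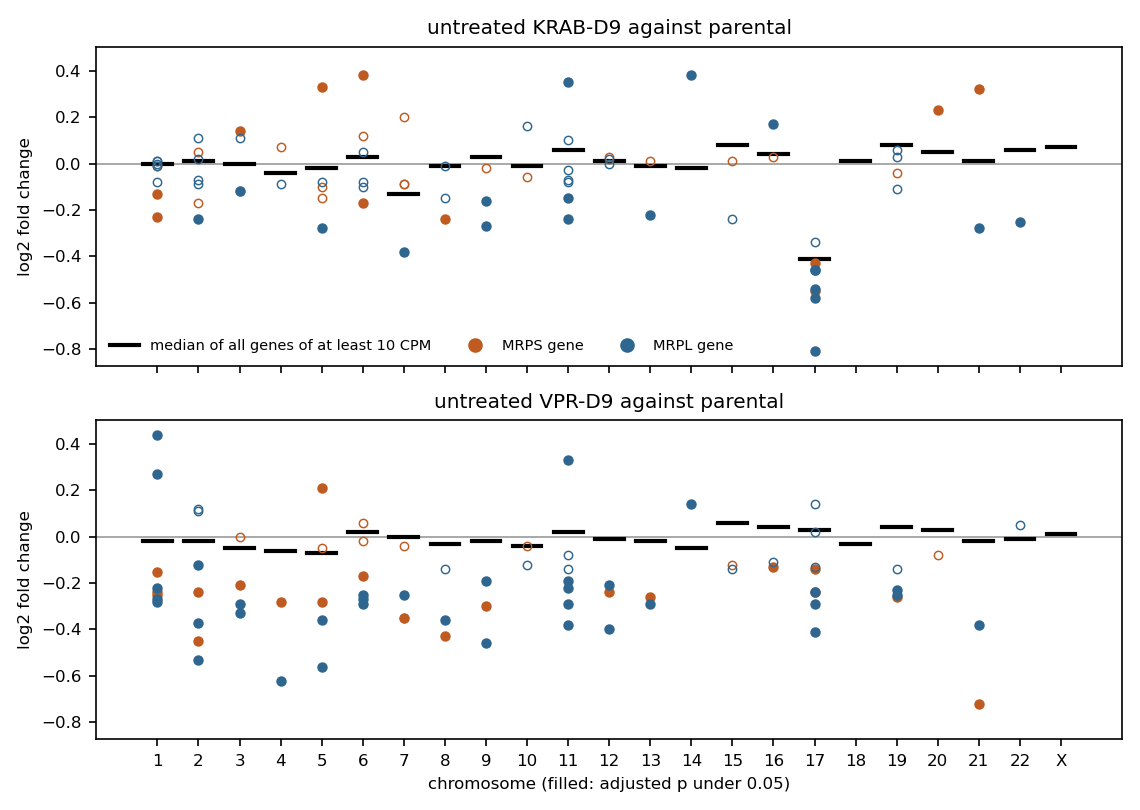
Log2 fold change of each MRPS and MRPL gene by chromosome in untreated KRAB-D9 (top) and VPR-D9 cells (bottom) against parental cells, with the median of all genes of at least 10 CPM on that chromosome as a bar. Only in the KRAB-D9 panel does the chromosome 17 bar lie far from 0, at -0.41, with the members of that chromosome around it.

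Most genes that serve the same ribosome were lower in D2000 too, against 24.2% lower over all genes tested and 50.6% among those of at least 10 CPM. The 5 subunits with other names were all lower, among them AURKAIP1 (-0.96 ± 0.05), GADD45GIP1 (-0.91 ± 0.06) and DAP3 (-0.61 ± 0.04). Of 24 assembly factors 20 were lower and 2 higher, with RPUSD4, a pseudouridine synthase for mitochondrial rRNA, at -1.09 ± 0.06, the rRNA methyltransferase MRM1 at -1.06 ± 0.08 and the RNA helicase DHX30 at -0.5 ± 0.04. Of 17 translation factors 15 were lower, among them TUFM, the elongation factor that brings tRNAs to the ribosome (-1.07 ± 0.04), and the partners LRPPRC (-0.79 ± 0.04) and SLIRP (-1.24 ± 0.07), which stabilise mitochondrial mRNAs. Of 13 genes of mitochondrial transcription and maintenance 11 were lower, with the helicase TWNK at -1.43 ± 0.06 and the transcription factor TFB2M at -1.32 ± 0.06. The 13 mitochondrially encoded mRNAs did not follow: 2 were lower, with a median of -0.05, and they took 3.94 and 3.88% of all counts in D2000 beside 3.43 and 3.52% untreated. Of 80 cytosolic ribosomal protein genes 73 were lower and 1 higher, with a median of -0.32.

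With doxycycline in KRAB-D9 cells, the lists stood beside a background of 46.4% called and 26.0% lower among genes of at least 10 CPM. Assembly factors were lower for 10 and higher for 2 of 24, translation factors lower for 8 and higher for 1 of 17 (52.9% called), and transcription and maintenance genes lower for 9 of 13 (69.2%), TWNK (-0.7 ± 0.06), PPRC1 (-0.62 ± 0.05) and TFB2M (-0.55 ± 0.06) first. Of the 5 subunits with other names GADD45GIP1 (-0.37 ± 0.06) and AURKAIP1 (-0.31 ± 0.05) were lower and DAP3 (0.11 ± 0.04) higher. Of the mitochondrially encoded mRNAs 6 of 13 were higher and none lower, with a median of 0.24. Cytosolic ribosomal protein genes were lower for 6 and higher for 8 of 80, with a median of 0.03. In D6 TUFM (-0.15 ± 0.04) and AURKAIP1 (-0.19 ± 0.05) were the 2 genes called in the 4 nuclear lists.

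Since the genes moved together in D2000, their promoters were searched for motifs, and some are shown. RefSeq's promoter table (GRCh38.p14, 250 bases before to 50 after the start) matched 68 of them. CCGGAAG, read by ETS factors such as GABPA, was present on either strand in 28 (41.2%), beside 10.7% of 27305 promoters. GCGCANGCG, read by NRF1, was in 13 (19.1%) beside 8.05%, and ATGGCGG, read by YY1, in 24 (35.3%) beside 5.72%, with 20 of its 25 matches reaching past the start. CACGTG, the E-box, was in 6 (8.82%) beside 7.43%, and TTTCNNTTT, of interferon response elements, in 8 (11.8%) beside 10.6%. Both strands were searched for each motif, and a base could count for more than 1 motif. Median GC content was 60.7% in the members' promoters and 58.3% in all. The 27305 promoters were taken regardless of expression in these cells, and promoters of expressed genes alone were not compared.

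The members whose last 100 bases before the start hold a stretch of at least 80 bases free of annotated exons with an ETS match in it were the following, each 5′ to 3′ on the gene's strand with the match in capitals. They are shown because the match recurs close to the start in genes that changed by very different amounts in D2000: MRPL3 (-1.18) and MRPL20 (-0.93) among the deepest falls, MRPL58 (-0.74) and MRPS31 (-0.62) near the middle, and MRPS10 (-0.34) and MRPS18A (-0.17) among the smallest.
MRPL3, chr3:131502984-131503071, minus strand: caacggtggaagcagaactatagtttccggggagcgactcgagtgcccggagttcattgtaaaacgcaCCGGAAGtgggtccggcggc
MRPL20, chr1:1407314-1407393, minus strand: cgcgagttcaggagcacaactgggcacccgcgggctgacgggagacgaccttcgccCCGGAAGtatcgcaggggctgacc
MRPL58, chr17:75012570-75012669, plus strand: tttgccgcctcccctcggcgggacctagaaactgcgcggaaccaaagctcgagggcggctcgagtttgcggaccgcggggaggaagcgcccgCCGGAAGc
MRPS31, chr13:40771191-40771290, minus strand: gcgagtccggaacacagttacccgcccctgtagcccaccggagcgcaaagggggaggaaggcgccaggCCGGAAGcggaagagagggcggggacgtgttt
MRPS10, chr6:42217866-42217961, minus strand: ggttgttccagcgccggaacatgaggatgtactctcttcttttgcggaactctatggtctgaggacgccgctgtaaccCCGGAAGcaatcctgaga
MRPS18A, chr6:43687792-43687891, minus strand: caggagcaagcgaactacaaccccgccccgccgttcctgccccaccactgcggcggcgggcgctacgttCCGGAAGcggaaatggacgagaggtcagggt

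Members with the ETS match had a median D2000 change of -0.51 (28 genes) and those without it -0.67 (40 genes). For the NRF1 motif the medians were -0.58 and -0.67, and for the YY1 motif -0.62 and -0.67. They were -0.51 and -0.66 for the E-box, and for the interferon element -0.77 (8 genes) and -0.61, the other way round. None of these differences was tested. NRF1 itself was at -0.04 ± 0.07 and GABPA at 0.1 ± 0.07 in D2000, neither past the test; both are named because their motifs were searched. A match is a run of letters, not a measured binding site.

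MRPS11 and MRPL46 lie head to head on chromosome 15, their starts 63 bases apart (88467453 on the plus and 88467390 on the minus strand). In D2000 MRPS11 went from 41.9 and 40 to 28 and 23.2 CPM (-0.68 ± 0.08) and MRPL46 from 13.4 and 14 to 7.52 and 7.04 (-0.91 ± 0.12). With doxycycline in KRAB-D9 cells MRPS11 was at -0.19 ± 0.07 and MRPL46 at -0.29 ± 0.13, and neither passed the test. MRPS11 passed it with the compared groups alone (-0.2, adjusted p = 0.0151, edgeR) and without the filter (-0.19, adjusted p = 0.0423). MRPL46 also passed it with the compared groups alone (-0.3, adjusted p = 0.0495). With IFN in both arms MRPL46 was lower (-0.48 ± 0.13) and MRPS11 was at -0.18 ± 0.08. With 1 library left out these values ranged from -0.7 to -0.29 for MRPL46 and from -0.28 to -0.09 for MRPS11. The difference between the neighbours was not tested.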

How the data were processed

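The authors deposited 1 table of raw gene-level counts (41285 genes, 18 libraries, no normalization); per the submitters' processing notes the tools were cutadapt 2.10, STAR 2.7.8a, FastQC 0.11.9 and featureCounts 2.0.2, with genome build GRCh38.p13. Per the labels' protocols, total RNA went into a stranded, polyA-selecting library kit. The annotation release, strand setting and treatment of multimapping reads were not given in the sources used here, so overlapping genes, antisense partners and pseudogenes can share reads. The gene length in the table, an annotation value per the file headers, was used to compare levels between genes.

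Genes were filtered with filterByExpr (22143 left), scaled by TMM, and fitted in edgeR 4.0.16 (R 4.3.3) with a robust quasi-likelihood model of 9 group means over all 18 libraries (9 residual degrees of freedom, common biological coefficient of variation 0.0569). p-values were adjusted by Benjamini-Hochberg over all genes tested, separately for each of 13 comparisons, with a threshold of 0.05. Standard errors are the size of the log2 fold change over the square root of F. Nothing in the labels ties the libraries to separate cultures; p-values thus reflect the spread between these samples, which may be technical. On counts simulated for doxycycline in KRAB-D9 cells over 22143 genes, the fit recovered 90% of 100 genes changed by 0.5 and 100% of 100 changed by 1 on the log2 scale, with 15 false calls. The simulation gave every gene the common coefficient of variation, changed only genes averaging over 100 counts, and left all groups otherwise alike. Changes smaller than 0.5 and spread that differs between genes were not simulated, so recovery and false calls in the real data may differ. Other settings tried were DESeq2 1.42.0 (its size factors and its Wald test), library totals, no filter, the compared groups alone, a replicate block, each library left out, and other memberships of the subunits.

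Named are, per comparison, up to 6 MRPS and 6 MRPL genes with the largest change among those called whose libraries do not overlap, MRPL1 and MRPS35 always, the 3 highest and lowest of each subunit per length, and the 3 called genes with the smallest adjusted p of each other list; further genes were named after their values were seen, among them those on chromosome 17, MRPS14, MRPL43, MRPL40, MRPS11 and those named for their promoters. The members, the lists and the tests were chosen with earlier results of these data known. MRPL53 and GTPBP6 were not analysed here. Replicate numbers were checked for pairing: over 10446 genes, 2 of 36 pairs of groups had a correlation of same-numbered deviations over 0.1 (range -0.12 to 0.196). The main fit used no pairing. A shared culture or batch need not show in such correlations, so whether same-numbered libraries belong together stayed undecided. No column of other samples was found. Sequences come from RefSeq's promoter table and exons from GENCODE release 29 on GRCh38.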

Additional observations from a re-analysis of the deposited data

Results flagged for a closer look

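The change in D2000 and that with doxycycline in KRAB-D9 cells differed by the test of the difference itself (edgeR quasi-likelihood test, adjusted over all genes) for the following genes, each value being the log2 change in D2000 minus that in KRAB-D9 cells. In the small subunit it was -0.82 for MRPS17, -0.71 for MRPS34, -0.7 for MRPS2, -0.6 for MRPS9, -0.6 for MRPS15, -0.6 for MRPS31 and -0.35 for MRPS35. In the large subunit it was -1.01 for MRPL24, -0.95 for MRPL3, -0.86 for MRPL50, -0.78 for MRPL17, -0.77 for MRPL30 and -0.77 for MRPL23. They were 13 of 63 genes with such a difference, in a comparison in which 31.3% of all genes tested were called. MRPL24, MRPL50, MRPL17, MRPL30, MRPL23, MRPS17, MRPS9 and MRPS31 were not called for doxycycline in KRAB-D9 cells. The lines also differ in the effector induced, and the difference between the codes of the doxycycline groups is not given.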

How the results depend on the processing

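The number of members called stayed within 1.5 times under DESeq2, its size factors, no filter and the replicate block in every comparison; it did not for IFN in parental cells with the compared groups alone (3 in place of 1), IFN in KRAB-D9 cells with the compared groups alone (0 in place of 6) and D6 with library totals (3 in place of 8). Leaving out 1 library gave 0 to 1 for IFN in parental cells, 0 to 16 for IFN in KRAB-D9 cells, 0 to 2 for IFN with doxycycline, 2 to 4 for D6, 0 to 9 for the difference of doxycycline effects in KRAB-D9 cells with and without IFN, and 0 to 7 for the difference of IFN effects, against 68 to 72 for D2000, 67 to 71 for D6 against D2000, 27 to 30 and 28 to 39 for doxycycline without and with IFN, 45 to 50 and 20 to 25 for untreated VPR-D9 and KRAB-D9 cells and 58 to 64 for the difference between doxycycline effects. The cause was not tested. Of 144 changes of named members 118 were called; 1 of these changed sign, MRPS18A in D2000 with library totals (0.06), as did 7 that were not called. Of the called, 24 lost the call without some library and 16 under another setting, with 7 such losses with library totals, 6 with the compared groups alone, 5 without the filter, 2 with the DESeq2 test and 1 with its size factors; MRPS28 in untreated KRAB-D9 cells lost it with the replicate block (adjusted p = 0.052). Whether libraries of the same number belong together is not given in the sources used here. Added after seeing the data, leaving out chromosome 17 left 23 of 30 calls in untreated KRAB-D9 cells.

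The median of the small minus that of the large subunit (SD of 1 library 0.0164) moved by more than that spread with the subunit by structure for IFN in KRAB-D9 cells (-0.01 to -0.03), doxycycline (0.01 to -0.01) and the difference between doxycycline effects (-0.07 to -0.11). Without overlapped or low members it moved for IFN in KRAB-D9 cells (0.01), D2000 (-0.04), D6 against D2000 (0.13), untreated VPR-D9 (0.11) and KRAB-D9 cells (0.08), the KRAB-D9 interaction (-0.02) and the difference between doxycycline effects (-0.13). With 1 library left out it ranged from 0 to 0.02 for IFN in parental cells, -0.05 to -0.01 and -0.02 to 0.01 for IFN in KRAB-D9 cells without and with doxycycline, -0.03 to 0 and -0.09 to 0.03 for doxycycline without and with IFN, -0.12 to -0.04 for D2000, -0.01 to 0.03 for D6, 0.06 to 0.08 for D6 against D2000, 0.02 to 0.03 and 0.04 to 0.06 for the untreated lines, 0 to 0.05 for the interaction, -0.1 to -0.02 for the difference of IFN effects and -0.12 to -0.05 for that of doxycycline effects. Depth limits MRPS24, with at most 52 counts a library.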
